A study of Homo sapiens with 3 samples.

Results

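PRCC-TFE3 binding was examined at *VHL*, *HIF1A*, *EPAS1*, *VEGFA*, *CA9* and *EGLN3*, 6 genes of the hypoxia pathway. The genes were chosen by name, and a peak was counted for a gene when it lay inside it or within 10 kb on either side, in hg19 coordinates. In total 60 of 109205 peaks of replicate 1 and 43 of 81300 peaks of replicate 2 belonged to these genes. The peaks of both replicates merged into 72 of the 117702 regions of the genome. The data came from chromatin immunoprecipitation sequencing (ChIP-seq) in HK-2, an established cell line derived from the proximal tubule of the human kidney. These cells expressed HA-tagged PRCC-TFE3 from a doxycycline-inducible system, which was switched on for 24 h with doxycycline at 0.2 µg/mL. The samples were 2 HA-PRCC-TFE3 ChIP libraries and 1 input DNA library, all from doxycycline-treated cells, and the ChIP libraries had 12235754 and 7418533 tags. Cells without doxycycline were not analysed here, so these sites are those of an induced, tagged fusion, and input DNA was the only background.

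Cells sense oxygen through the hypoxia-inducible factors. In normal oxygen, prolyl hydroxylases of the EGLN family modify the alpha subunits of these factors, and VHL, the substrate receptor of a ubiquitin ligase, then marks them for degradation. When oxygen is low or VHL is lost, as in clear cell renal cell carcinoma, the alpha subunits persist, pair with ARNT and activate genes through short hypoxia response elements. PRCC-TFE3 joins part of PRCC to TFE3, a transcription factor of the MiT/TFE family that binds E-box motifs, and it drives a different type of renal cell carcinoma.

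To show the DNA at these gene starts, the 250 bases before the start were taken from the RefSeq promoter table (GRCh38.p14), which matched 4 of the 6 genes. They are given 5′ to 3′ on the gene's strand for *HIF1A* (chr14:61695263-61695512, plus strand), *EPAS1* (chr2:46297157-46297406, plus strand), *EGLN3* (chr14:33951075-33951324, minus strand) and *CA9* (chr9:35673678-35673927, plus strand), because the first 3 lie at promoters with a peak in both replicates and the last at a promoter with none. Capitals mark, on either strand, ACGTG or GCGTG (cores of the hypoxia response element), TGACTCA (the AP-1 motif) and CCAAT.
HIF1A: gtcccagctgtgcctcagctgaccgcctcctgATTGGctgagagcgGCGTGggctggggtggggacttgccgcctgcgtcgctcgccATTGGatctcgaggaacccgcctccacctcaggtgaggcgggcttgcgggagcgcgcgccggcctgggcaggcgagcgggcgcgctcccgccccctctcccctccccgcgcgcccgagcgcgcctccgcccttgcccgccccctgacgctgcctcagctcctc
EPAS1: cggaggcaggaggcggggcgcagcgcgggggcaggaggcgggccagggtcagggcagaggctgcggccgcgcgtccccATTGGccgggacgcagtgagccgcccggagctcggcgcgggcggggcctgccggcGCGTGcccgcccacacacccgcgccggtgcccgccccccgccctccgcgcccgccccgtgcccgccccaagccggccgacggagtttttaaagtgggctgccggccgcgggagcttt
EGLN3: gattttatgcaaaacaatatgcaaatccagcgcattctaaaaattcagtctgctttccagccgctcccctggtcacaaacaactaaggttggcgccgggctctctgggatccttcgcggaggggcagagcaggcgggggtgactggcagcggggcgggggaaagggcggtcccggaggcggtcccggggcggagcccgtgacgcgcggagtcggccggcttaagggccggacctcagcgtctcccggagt
CA9: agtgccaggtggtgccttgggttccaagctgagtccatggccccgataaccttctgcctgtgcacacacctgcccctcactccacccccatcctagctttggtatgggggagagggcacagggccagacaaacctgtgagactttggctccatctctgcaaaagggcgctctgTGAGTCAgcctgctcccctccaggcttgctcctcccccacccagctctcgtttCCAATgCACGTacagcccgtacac

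The E-box CACGTG, its extended form TCACGTGA and the M-box core TCATGTG were in none of these 4 sequences. Across 35116 promoters of the same length, they were present in 6.34%, 0.854% and 2.52%. ACGTG, which is contained in CACGTG, was found in the *CA9* sequence alone, at bases -18 to -14 from the start on the minus strand, and was present in 18.5% of all promoters. TGACTCA also matched *CA9* alone, at bases -77 to -71 on the minus strand, compared with 4.2% of all promoters. The motif GCGTG, the CCAAT box and the GC box were added to the search after the sequences were seen. GCGTG was present once in *HIF1A* and once in *EPAS1*, compared with 32.2% of all promoters with any match, and CCAAT was present in *HIF1A*, *EPAS1* and *CA9*, compared with 32%. The GC box, GGGCGG, occurred 7 times in *EPAS1*, 3 times each in *HIF1A* and *EGLN3* and 0 times in *CA9*, compared with 42.6% of promoters with any match. The lengths of the 4 genes differed by 8 to 113 bases between RefSeq and the hg19 coordinates. The shift of the start itself was not determined, so a summit position cannot be placed exactly on these sequences. A match in these letters is not a binding site, and the peaks extend beyond these windows.

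The first question was whether PRCC-TFE3 occupied the promoters, defined as 1 kb on either side of the gene start. A region with peaks of both replicates was called shared, and 5 of the 6 genes had a shared region at the promoter. These were *HIF1A*, *EGLN3*, *VHL*, *VEGFA* and *EPAS1*. *CA9*, which encodes a membrane carbonic anhydrase and a classical target of the hypoxia-inducible factors, had no promoter peak in either replicate. Across the genome, 59.8% of all regions were shared, which is a share of regions with a peak and not of genes or promoters. A comparison with the promoters of all genes needs an hg19 annotation and was not analysed here. With the BED lists, a second set of peaks in fixed windows that the authors deposited for the same libraries, the same 5 genes had a shared promoter region.

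*HIF1A*, which encodes the alpha subunit of hypoxia-inducible factor 1, had the strongest promoter region by fold enrichment and by tags. It lay at chr14:62161676-62162382, and the fold enrichments given by the peak caller were 38.0 in replicate 1 and 23.7 in replicate 2. These values were higher than 99.9% and 97.3% of the peaks of their lists. The summits lay at -166 bp and -171 bp from the start, where negative positions are upstream, and were 5 bp apart. In the BED lists, the window there contained 75 ChIP tags in replicate 1 (95% exact Poisson interval, 59.0 to 94.0) and 39 in replicate 2 (27.7 to 53.3). Per 10000000 tags of the library, this was 61.3 (48.2 to 76.8) and 52.6 (37.4 to 71.9), so the replicates overlapped within counting error although their fold enrichments stood further apart. The same windows held 2 input tags in each list. Beside it, replicate 1 alone had a peak at -1.21 kb with a fold enrichment of 8.56, and replicate 2 alone had a peak at 1.01 kb with a value of 3.51.

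*EGLN3* encodes a prolyl hydroxylase and is itself induced by hypoxia. Its main promoter region, chr14:34419874-34420538, was enriched 19.8-fold in replicate 1 and 18.0-fold in replicate 2. The summits lay at -84 bp and -86 bp from the start. The region contained 37 tags in replicate 1 (26.1 to 51.0) and 27 in replicate 2 (17.8 to 39.3), with 2 and 1 input tags in the windows. A second promoter region of *EGLN3*, chr14:34419598-34419856, was shared but weak, with fold enrichments of 4.28 and 3.85, and was in neither BED list.

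*VHL* had a single peak in each replicate, and no other peak lay within 10 kb of the gene. It covered the region chr3:10183273-10183905, and its fold enrichments were 17.7 in replicate 1 and 19.3 in replicate 2. The summits were inside the gene, 147 bp and 135 bp downstream of the start. The tags numbered 33 (22.7 to 46.3) and 28 (18.6 to 40.5), and the windows held 0 input tags. With 0 input tags, the ratio of ChIP to input in the lists rests on a constant in place of 0 and is not given. The tags were 28.8 and 44.6 times the local background, the highest such ratio among the BED peaks of the 6 genes in each replicate. At the *EGLN3* promoter this ratio was 22.6 and 32.0, and at the *HIF1A* promoter it was 15.8 and 15.1. The medians of the lists were 12.75 and 14.77. By this measure *HIF1A* was thus below *VHL* and *EGLN3* in each replicate.

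*VEGFA*, the gene of the main angiogenic growth factor that hypoxia induces, had a shared promoter region at chr6:43737310-43738016. Its fold enrichments were 15.5 in replicate 1 and 10.9 in replicate 2, and its tags numbered 28 (18.6 to 40.5) and 16 (9.15 to 26.0). The summits lay at -168 bp and -58 bp from the start, 110 bp apart. The peaks overlapped, but they did not meet the stricter definitions of reciprocal overlap of 50% or summits within 100 bp. Under either, 4 of the 6 genes had a shared promoter region.

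*EPAS1*, which encodes HIF-2 alpha, the alpha subunit that drives much of clear cell renal cell carcinoma, had a weak promoter region. At chr2:46524175-46524461 the fold enrichments were 5.67 in replicate 1 and 5.16 in replicate 2, below the medians of the lists (7.49 and 7.32). The window contained 17 tags (9.90 to 27.2) and 10 tags (4.8 to 18.4), and 3 input tags in each list. The summits lay at -247 bp and -252 bp from the start. Although weak, the region was present in both lists of both replicates. A further promoter peak, at 0.288 kb with a fold enrichment of 4.20, was in the narrowPeak list of replicate 1 alone.

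**Figure D1:**
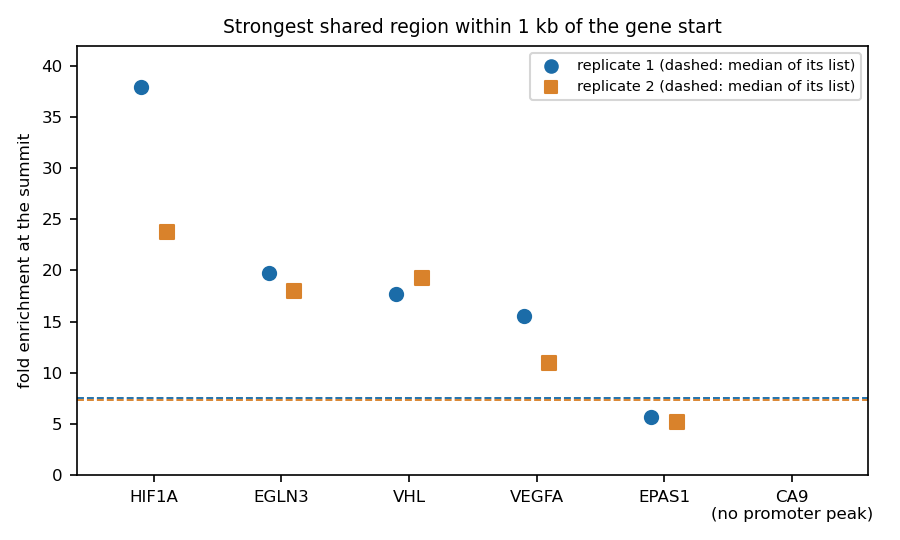
Fold enrichment at the summit (y axis, linear) of the strongest shared region within 1 kb of each gene start, for replicate 1 (circles) and replicate 2 (squares); dashed lines are the median peak of each list, and no errors are drawn because each library gives a single value. *HIF1A* stands highest at 38.0 and 23.7, *EGLN3* and *VHL* lie between 17.7 and 19.8, *EPAS1* lies below both lines, and *CA9* has no point.

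By tags, the order of the promoters was *HIF1A*, *EGLN3*, *VHL*, *VEGFA* and *EPAS1* in replicate 1 and *HIF1A*, *VHL*, *EGLN3*, *VEGFA* and *EPAS1* in replicate 2. In replicate 1, the interval of *HIF1A* lay above those of the other genes. The intervals of *EGLN3*, *VHL*, *VEGFA* and *EPAS1* all overlapped each other. In replicate 2, the intervals of all neighbours in the order overlapped. The windows had a fixed width of 208 bp in replicate 1 and 212 bp in replicate 2, so the tags of different genes can be set side by side within a replicate. The intervals cover counting error only.

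Peaks outside the promoters differed between the genes in number and place, but the windows also differed in length, from 27.2 kb for *CA9* to 109 kb for *EPAS1*. Per 10 kb, all peaks counted, replicate 1 had 1.19 at *EPAS1*, 1.10 at *CA9*, 1.07 at *EGLN3*, 0.827 at *VEGFA* and 0.312 at *VHL*. In replicate 2 these values were 1.01, 0.734, 0.640, 0.276 and 0.312. *EPAS1* had 13 peaks in replicate 1 and 11 in replicate 2, which formed 14 regions. Of these, 10 (71.4%) were shared, compared with 59.8% of all regions. Apart from the promoter region, the other 9 shared regions lay within the gene, from 2.58 kb to 37.5 kb downstream of the start. The strongest was chr2:46542239-46542923, with fold enrichments of 15.4 and 15.2 and summits at 17.95 kb and 18.2 kb from the start, 257 bp apart. Its BED peaks in the replicates did not overlap, and its summits were not within 100 bp. With the BED lists, or with summits within 100 bp, 9 regions of *EPAS1* were shared. By the lower of both values it was followed by chr2:46561843-46562344, with 12.3 and 10.9, and chr2:46556972-46557317, with 15.0 and 10.3. These 3 regions had higher values than the *EPAS1* promoter region in each replicate. A lone peak of replicate 1, 67.6 kb from the start, was the narrowPeak peak nearest to the end of the gene, with a fold enrichment of 8.14. Whether these regions are in exons or introns was not analysed here.

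*CA9* had 3 peaks in replicate 1 and 2 in replicate 2, and none of them was inside the gene. The shared regions were chr9:35665076-35665471, with summits at -8.67 kb and -8.61 kb, and chr9:35669486-35669751, with summits at -4.30 kb and -4.35 kb. The former had fold enrichments of 10.6 and 13.8 and the latter of 7.49 and 7.06. In the BED lists the more distant region held 19 tags in replicate 1 (11.4 to 29.7) and 23 in replicate 2 (14.6 to 34.5). In the RefSeq table *ARHGEF39* and *TPM2* neighbour *CA9*, so a peak within 10 kb of *CA9* is not thereby a peak of that gene. The remaining peak of replicate 1 was 14.98 kb downstream of the start, beyond the end of the gene, and had a fold enrichment of 6.22.

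*EGLN3* had 5 peaks in replicate 1 and 3 in replicate 2. Besides both promoter regions, chr14:34407424-34408102 was shared, 12.6 kb and 12.8 kb downstream of the start, with fold enrichments of 10.2 and 4.55. Its summits were 218 bp apart, and it was absent from the BED list of replicate 2. With the BED lists, with q below 1e-05 or with summits within 100 bp, *EGLN3* had 1 shared region. The peaks beyond the end of the gene, 33.5 kb and 35.8 kb from its start, were in the lists of replicate 1 alone. *VEGFA* had further peaks in replicate 1 at 0.39 kb and 3.24 kb from the start, with fold enrichments of 4.56 and 6.95, which replicate 2 did not have in its narrowPeak list. Its BED list had a peak 480 bp downstream of the start, with 9 tags and 3 input tags. Replicate 2 had 7418533 tags against 12235754 in replicate 1, and the part of depth in peaks listed in a single replicate was not tested.

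**Figure D2:**
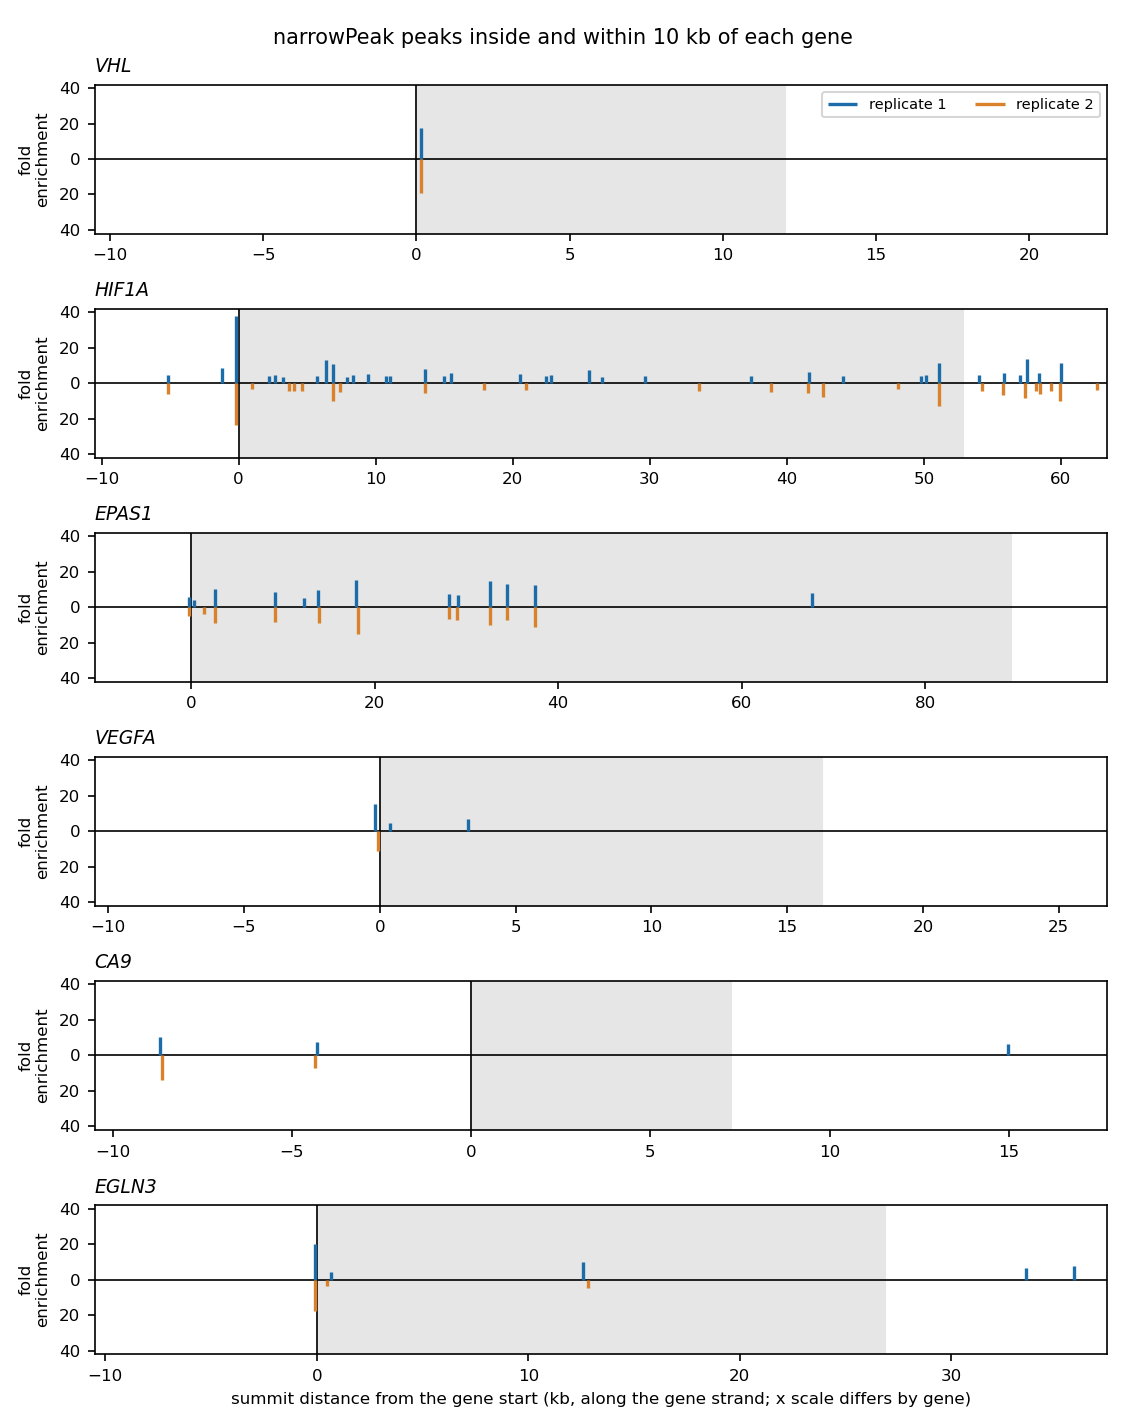
Peaks of the narrowPeak lists for each gene, placed by the distance of the summit from the gene start in kb along the gene's strand (x axis, scaled by gene), with the fold enrichment as the length of the bar, upward for replicate 1 and downward for replicate 2; the grey band is the gene. *VHL* has 1 peak in each replicate, *EPAS1* has a series of paired bars up to 37.5 kb, *CA9* has none in the gene, and *HIF1A* has 35 and 25 bars of which most are short.

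*HIF1A* differed from the other genes in the number of its peaks. Its window held 35 peaks in replicate 1 and 25 in replicate 2, or 4.8 and 3.43 per 10 kb. For the other 5 genes the numbers ranged from 0.312 to 1.19 per 10 kb in replicate 1 and from 0.276 to 1.01 in replicate 2. Chromosomes 1 to 22 and X were cut into adjoining windows of the same length as that of *HIF1A*, 72.9 kb. The median window held 1 summit in either replicate, and 0 of 41670 windows in replicate 1 (0%) and 0 of 41665 in replicate 2 (0%) held as many as *HIF1A*, with 34 and 24 in the fullest windows. When the windows could start at any summit, 2 other loci in replicate 1 and 7 in replicate 2 held at least as many, and the highest held 46 and 29. For *EPAS1*, 6.26% and 5.32% of windows of its own length held at least as many summits. For the remaining genes this share was 47% and 39.4% (*VHL*), 19.1% and 42.1% (*VEGFA*), 13.6% and 18% (*CA9*), and 11.6% and 18.2% (*EGLN3*).

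Most *HIF1A* peaks were weak, and they overlapped the other replicate less often than the average peak of their lists, a difference that was not tested. In replicate 1, 25 of the 35 peaks had a fold enrichment below 6, and in replicate 2, 17 of the 25 did. Over the genome, 37086 of 109205 peaks in replicate 1 and 26581 of 81300 in replicate 2 were below 6. Of all *HIF1A* peaks, 11 of 35 (31.4%) in replicate 1 overlapped a replicate 2 peak, compared with 65.3% of all replicate 1 peaks. In replicate 2, 13 of 25 (52%) overlapped a replicate 1 peak, compared with 88.5% of all replicate 2 peaks. Among peaks with a fold enrichment below 6, 3 of 25 in replicate 1 and 6 of 17 in replicate 2 did so, whereas the shares over the genome were 30.4% and 71.0%. The peaks formed 46 regions, of which 10 (21.7%) were shared.

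The 10 shared regions of *HIF1A* were the promoter, 1 region upstream, 4 within the gene and 4 downstream of it. Their number depended on the definition, with 6 under reciprocal overlap of 50%, 5 within the gene body alone, and 2 with the BED lists. The upstream region, at -5.12 kb and -5.16 kb from the start, had fold enrichments of 4.31 and 5.90. Within the gene, chr14:62212836-62213413 near its end was the strongest by the lower of both values, with 11.5 and 12.9 and both summits 51.1 kb from the start. It was also present in both BED lists, with 25 tags in replicate 1 (16.2 to 36.9) and 19 in replicate 2 (11.4 to 29.7). Next came chr14:62168363-62169581, 6.4 kb and 6.85 kb from the start, with values of 12.8 and 10.3. Beyond the end of the gene, chr14:62221282-62222524 had values of 11.2 and 10.3, and chr14:62219235-62219786 had values of 13.5 and 8.15. The former was in neither BED list and the latter in that of replicate 1 alone. The antisense genes *HIF1A-AS1*, *HIF1A-AS2* and *HIF1A-AS3* neighbour *HIF1A* in the RefSeq table, and ChIP-seq peaks do not tell which of them a region belongs to.

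Few *HIF1A* peaks were in both kinds of list. Of its narrowPeak peaks, 3 of 35 (8.57%) in replicate 1 and 4 of 25 (16%) in replicate 2 were also present as a peak of that library's BED list. Over the genome, the shares were 74.6% and 74.9%. For the other 5 genes together, 21 of 25 peaks (84%) in replicate 1 and 15 of 18 (83.3%) in replicate 2 were in the BED list. Single genes with few peaks also had low shares, with 1 of 3 for *VEGFA* in replicate 1 and 1 of 3 for *EGLN3* in replicate 2. Other loci with as many summits were not compared. Among all peaks with a fold enrichment below 6, 38.3% in replicate 1 and 36.8% in replicate 2 were in the BED list, compared with 0 of 25 and 1 of 17 at *HIF1A*. In the BED lists, the lowest ratio of tags to the local background was 4. *HIF1A* peaks of the BED lists away from the promoter had ratios of 5.09 to 7.56, whereas the medians of the lists were 12.75 and 14.77. The missing peaks have no such ratio. Low ratios also occurred at *EPAS1*, down to 4.58 in replicate 1 and 5.84 in replicate 2. Of the *EPAS1* narrowPeak peaks, 12 of 13 in replicate 1 and 10 of 11 in replicate 2 were in the BED list. Whether the local background accounts for the missing peaks was not tested.

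**Figure D3:**
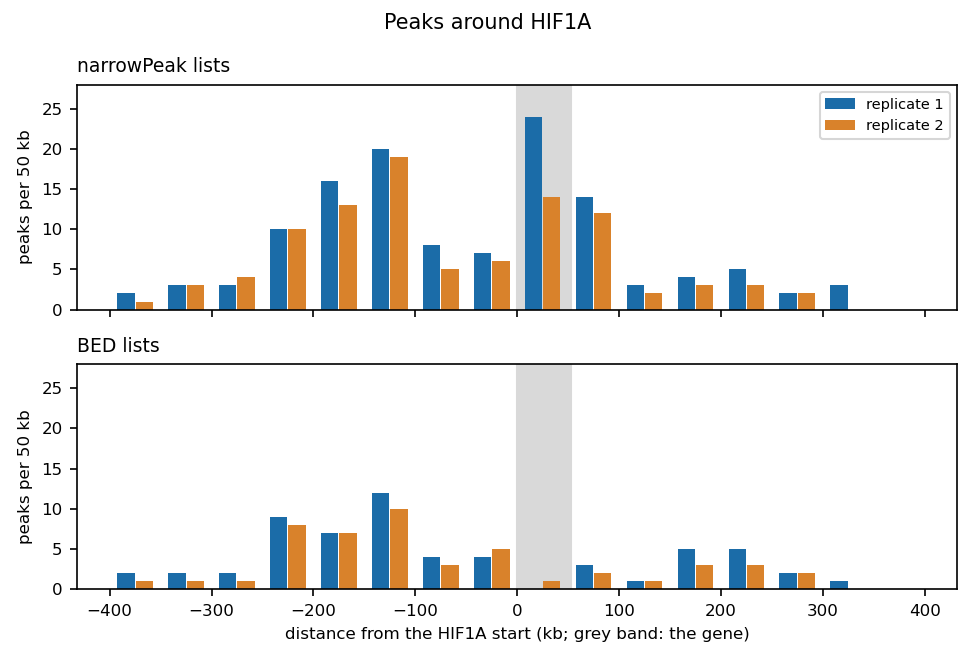
Number of peak summits per 50 kb (y axis) in replicate 1 and replicate 2 by distance from the *HIF1A* start in kb (x axis), in the narrowPeak lists (upper panel) and the BED lists (lower panel); the grey band is the gene. From 0 to 50 kb the narrowPeak lists have 24 and 14 summits and the BED lists have 0 and 1, whereas from -150 to -100 kb both kinds of list hold 10 or more in each replicate. The BED peak at the *HIF1A* promoter lies just upstream of 0 and is counted in the bin before it.

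Peaks were also dense around *HIF1A*. From 0 to 50 kb of its start there were 24 summits in replicate 1 and 14 in replicate 2, and in the next 50 kb there were 14 and 12. The mean over the genome was 1.80 and 1.34 summits per 50 kb. Upstream, from -150 to -100 kb, a separate dense stretch held 20 and 19 summits. There, the BED lists held 12 and 10 peaks, whereas from 0 to 50 kb they held 0 and 1. The stretch from 0 to 50 kb leaves out the *HIF1A* promoter peak, at -167 bp and -168 bp. From 50 to 100 kb the BED lists held 3 and 2. From 100 to 400 kb downstream, either replicate had between 0 and 5 summits per 50 kb.

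Finally, the replicates were compared by tags. Of the 25 BED peaks of the 6 genes in replicate 1 and the 20 in replicate 2, 16 could be matched. Together they contained 398 and 274 tags, so replicate 2 contributed 40.8% (95% Wilson interval, 37.1% to 44.5%), compared with 39.8% over all 55655 matched peaks. For single peaks its share ranged from 30.3% to 54.8%. An exact binomial test of each peak against the overall share, two-sided and with Benjamini-Hochberg adjustment over all matched peaks, called 0 of the 16 peaks and 0 of 55655 (0%) at an adjusted p of 0.05. At an unadjusted p under 0.05 it called 0 of the 16 and 1227 of all matched peaks (2.2%). The lowest unadjusted p among the genes was 0.058, at the more distant upstream region of *CA9*, where the share was 54.8% (39.9% to 68.8%; exact test, adjusted p = 1). The test compares these libraries and not conditions, and at such tag numbers it cannot show small differences. Only peaks listed for both libraries were tested, so a peak strong in 1 library and unlisted in the other was left out beforehand. The absence of calls therefore does not show that the libraries were equal.

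**Figure D4:**
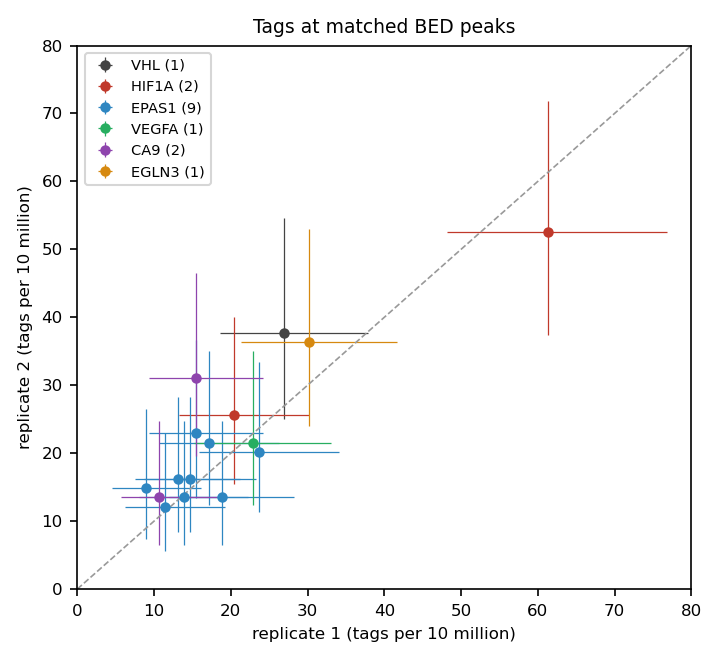
Tags per 10000000 tags of the library at the 16 matched BED peaks, replicate 1 on the x axis and replicate 2 on the y axis, coloured by gene with the number of peaks in brackets; bars are 95% exact Poisson intervals and the dashed line marks equality. The *HIF1A* promoter lies apart at 61.3 and 52.6, and the *CA9* upstream peak at 15.5 and 31.0 lies above the line.

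Recovery between replicates over the 6 genes together was 28 of 60 peaks (46.7%; 95% Wilson interval, 34.6% to 59.1%) in replicate 1 and 30 of 43 (69.8%; 54.9% to 81.4%) in replicate 2, compared with 65.3% and 88.5% of all peaks. *HIF1A* held 35 and 25 of these peaks. The intervals treat peaks as independent, which peaks clustered at a single gene need not be, so they do not measure a spread between genes. Without it, 17 of 25 peaks of replicate 1 and 17 of 18 of replicate 2 were recovered, and 17 of 26 regions (65.4%) were shared instead of 27 of 72 (37.5%), compared with 59.8% of all regions. In the 27 shared regions, the median fold enrichments were 10.2 and 8.34, beside 10.1 and 7.99 over all shared regions, and the median distance between summits was 35 bp.

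The windows of the 6 genes contained no input peak, out of 286 in the input list. Accordingly, 0 of the 60 and 0 of the 43 peaks overlapped an input peak, compared with 0.0311% and 0.0504% of all peaks. BED peaks of the 6 genes had a mean of 1.16 input tags in replicate 1 and 1.25 in replicate 2, compared with 0.874 and 0.876 over the whole lists. The highest number was 4, at an *EPAS1* peak 2.58 kb from the start, where the ratio of ChIP to input was 7.98.

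The wider pathway was examined by promoter sequence alone, because its hg19 coordinates were not used here. Of 27 further genes, 22 were in the RefSeq table. CACGTG was present before the start of 5 of them, *RBX1*, a subunit of the VHL ubiquitin ligase, the prolyl hydroxylase gene *EGLN2*, and the hypoxia targets *ANKRD37*, *BNIP3* and *LDHA*. This compares with 7.73% of all 27305 genes in RefSeq. ACGTG was present in 12 of the 22, compared with 21.7% of all genes. These include the 5 with CACGTG, since ACGTG is part of it. The genes were listed for their place in the pathway, hypoxia targets among them, and ACGTG is a core of the hypoxia response element. For ACGTG and CACGTG the comparison with all genes is thus not independent of how the list was chosen. TGACTCA was present in 1 of the 22, *KDM3A*, compared with 5.19% of all genes. TCACGTGA was in 0 of the 22, compared with 1.04%, and the M-box core TCATGTG in 0 of the 22, compared with 3.11%. Of the motifs added later, GGGCGG was in 18 of the 22, compared with 46.2% of all genes. GCGTG and CCAAT were each in 11, compared with 36.2% and 37%. These counts describe sequences and not binding.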

How the data were processed

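ChIP-seq was performed with an antibody against HA in HK-2 cells that express the tagged fusion on doxycycline, after digestion with micrococcal nuclease, with 2 ChIP samples and 1 input DNA sample, grouped by their labels. The study describes the ChIP samples as biological replicates, and the labels do not say how they were separated. The authors deposited peak lists for each sample, in hg19 per the labels; peak ends lay beyond the hg38 sequence on 16 of 25 chromosomes. The methods, written for HA-TFE3, name MACS in Strand NGS with input as comparison; the aligner is not given in the sources used here. The deposited narrowPeak lists hold a fold enrichment ratio, −log10 p and −log10 q values and a score of 10 times −log10 q, and reach q = 0.05. The deposited BED lists have the column order of HOMER findPeaks under a displaced header, and were read by position. Per the deposited values they hold a score, the count of tags, signal per 10000000 tags, scaled input signal, fold ratios, p-values and a fraction that was not used.

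Library totals, computed as tags over scaled signal, were 12235754 and 7418533 tags for replicates 1 and 2. Input tags per BED peak were found by dividing ChIP tags by their ratio to input and counting in steps of a single scaled input tag; 100% were within 0.25 of a whole number, and the input total was 21698022 tags by the replicate 1 list and 21692602 by that of replicate 2. Peaks overlapping by at least 1 bp were merged, and gene coordinates were those of the given rule. The 6 genes, the 27 further genes and the tests were chosen with earlier results of these data known. Named were each gene's promoter regions, strongest shared region and region nearest the start; other regions were chosen after their values were seen. The exact binomial test was tested on simulated data. Python 3.11.15, numpy 2.4.6, pandas 2.3.3, scipy 1.17.1 and matplotlib 3.10.9 were used. Alternatives were the BED lists, q below 1e-05, other windows and promoters, stricter overlap, other expected shares and leaving out a replicate.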

Additional observations from a re-analysis of the deposited data

How the results depend on the processing

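Of 53 alternative values for the counts, shares and medians over the 6 genes, 38 stayed within a factor of 1.5, the Wilson interval or the spread between replicates, and 15 moved. The BED lists gave 25 and 20 peaks, 16 shared regions, a recovery of 64% in replicate 1, and median folds over input of 47.88 and 51.2, which are on another scale and include peaks with 0 input tags. With q below 1e-05 there were 37 and 26 peaks, and recovery was 67.6% and 92.3%. With the gene bodies alone the median fold enrichment in replicate 1 was 11.46. Recovery of replicate 2 peaks was 48.8% with reciprocal overlap of 50% and 51.2% with summits within 100 bp, by construction. Leaving out either replicate gave 40 to 59 regions in place of the 27 shared ones, since a region then needs a peak of the remaining replicate alone, and left 5 genes with a promoter peak. Input tags per BED peak were 1.25 with the list of replicate 2. The number of genes with a shared promoter region stayed between 4 and 5. Of 84 values for single genes, 72 stayed and 12 moved, among them the *VEGFA* promoter under stricter overlap. No paired analysis was possible because both ChIP libraries belong to the same group, and the input was a lone library. Whether depth limits the peaks listed in 1 replicate alone was not tested.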
